A study of Mus musculus with 6 samples.

Results

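The 200 most abundant named long noncoding RNAs of mouse bone marrow-derived mesenchymal stem cells (MSCs) were described with and without tumor necrosis factor alpha (TNF-α). They were chosen by mean TPM (a transcript level corrected for length) over all 6 libraries, out of 1075 lncRNA genes that carry a symbol. The gene table listed 15634 genes, and 2 lncRNAs were left out of the ranking by the selection rule. The study concerned how macrophages act on MSC function through TNF-α after tooth extraction. The cells were derived from C57BL/6J animals of wild-type genotype, and their α-MEM contained 15% fetal bovine serum. Control consists of 3 libraries without stimulation, and TNF of 3 libraries after 24 h in 10 ng/mL TNF-α. Both groups shared the strain, the wild-type genotype and the culture medium, and neither carried a transgene. The labels do not say whether replicates were separate cultures or animals, so p-values measure the spread between these libraries, which may be technical.

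Long noncoding RNAs are transcripts that are not known to be translated into a conserved protein. Some act in the nucleus, such as Malat1 in splicing speckles, Neat1 as the scaffold of paraspeckles and Xist as the RNA that coats the inactive X chromosome. Others matter mainly for what lies in their introns: host genes release small nucleolar RNAs (snoRNAs), which guide the modification of ribosomal RNA, or microRNAs, which silence messenger RNAs. Many start beside, or run opposite to, a protein-coding gene. TNF-α signals chiefly through the transcription factors NF-kB and AP-1, and in stromal cells it induces cytokines and chemokines.

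Library depth ranged from 45629973 to 77142418 counts. TNF replicate 2 held 19.4% of its counts in 18S ribosomal RNA, against 1.1% to 3.55% in the other libraries, and 77.5% in protein-coding genes, against 94.1% to 96.8%. Control replicate 2 was the deepest library and held the largest share of mitochondrial messenger RNA, 4.45%. All 12 mesenchymal stromal markers were in the table, with a summed level of 18555 to 23345 CPM (counts scaled for library depth, not for length) in Control and 11686 to 12354 CPM in TNF, and 3 of them were called higher and 3 lower. All 12 macrophage markers were in the table too, none at 0, summing to 2135 to 3245 CPM in Control and 2035 to 2164 CPM in TNF, with 2 called higher and 5 lower. Over all genes tested, 16.0% were called higher and 16.4% lower. Of the endothelial, erythroid and lymphocyte lists, 1 of 5, 1 of 5 and 0 of 5 markers were in the table. The part of the macrophage RNA in the results below was not tested. In bulk libraries such as these, fewer cells of a type and less RNA per cell cannot be told apart.

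Levels were spread very unevenly among the 200. The median mean level was 6.86 TPM, 73 reached 10 TPM and 9 reached 100 TPM. The 4 most abundant made up 51.7% of the summed TPM, and the 200 together held 87.4% of the TPM of all named lncRNAs. Since mean TPM chose them, these levels describe the selection. Summed TPM was 6184, 3772 and 5598 in Control and 6207, 7141 and 5159.9 in TNF. The groups overlapped, and the difference of 985 TPM was smaller than the SD of 1258 TPM in Control (n = 3). Control replicate 2 was the low library. It held 513 TPM of Malat1, which was 13.6% of its summed level, against 37.8% to 45.6% in the other 5 libraries. Without Malat1 the sums were 3595, 3259 and 3458 TPM in Control and 3394, 3882 and 3207 TPM in TNF, which overlapped as well. Transcript models were 269 to 20771 bases long (median 1665), and 55 of the 200 had a single exon.

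Malat1, the speckle RNA, stood at 2589, 513 and 2140.4 TPM in Control and at 2813, 3259 and 1953 TPM in TNF. Its log2 fold change was 0.73 ± 0.44 (SE), with an adjusted p of 0.236. Without Control replicate 2 the log2 fold change was 0.35, and without replicate 2 of both groups it was 0.08. Neat1, the paraspeckle scaffold, showed the same low library, with 152, 52.7 and 106 TPM in Control and 125, 167 and 114 TPM in TNF (log2 fold change 0.44 ± 0.30, adjusted p = 0.284). Rmrp, the RNA of the ribonuclease that processes ribosomal RNA precursors, varied most. It stood at 194, 10.1 and 206 TPM in Control and at 168, 959 and 49.8 TPM in TNF, and the groups overlapped (log2 fold change 1.79 ± 1.14, adjusted p = 0.26). The 18S shares of the same libraries were 2.65%, 1.13% and 3.55% in Control and 3.25%, 19.4% and 1.1% in TNF. With the 18S share as a covariate the adjusted p of Rmrp was 0.953, and its log2 fold change turned to -0.82 without replicate 2 of both groups. Norad, which binds Pumilio proteins in the cytoplasm, was even, at 148, 145 and 123 TPM against 124, 114 and 115 TPM (log2 fold change -0.06 ± 0.13, adjusted p = 0.728).

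**Figure D1:**
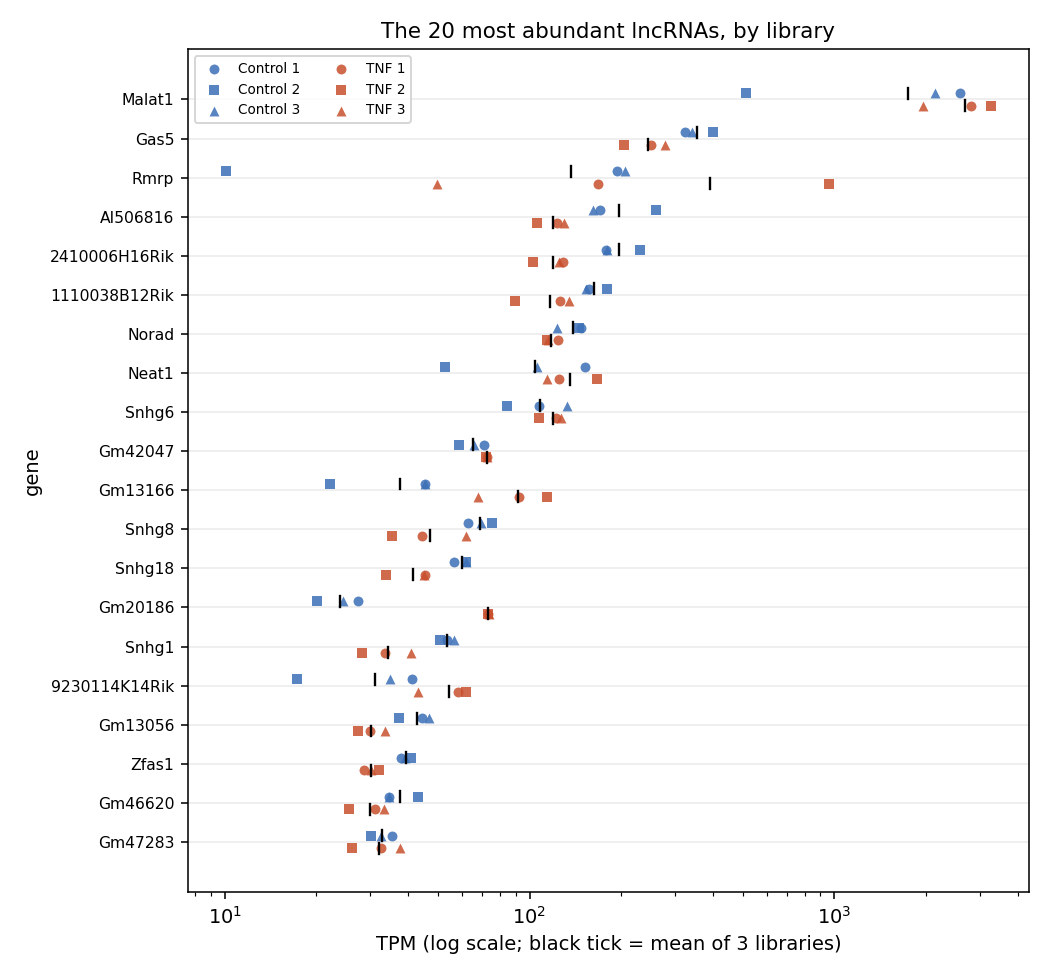
TPM of the 20 most abundant lncRNAs in each of 6 libraries, on a log axis. Blue symbols are Control, red symbols are TNF, the symbol shape gives the replicate and black ticks are means of 3 libraries. Control replicate 2 is the low point for Malat1 (513 TPM), Rmrp (10.1 TPM) and Neat1 (52.7 TPM).

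The next genes in rank were snoRNA hosts and unnamed transcripts. Gas5, AI506816, 2410006H16Rik and 1110038B12Rik, with mean levels of 299.7, 158, 158 and 140 TPM, all contain snoRNA genes and were called lower in TNF. Their values by library are given with the other hosts. Among the rest of the 20 most abundant, Gm13166 and Gm20186 were called higher. Gm13166 stood at 45.4, 22.2 and 45.5 TPM in Control and at 92.3, 114 and 67.9 TPM in TNF. Gm20186, which starts opposite the splicing-factor gene Lsm8, stood at 27.3, 20.1 and 24.5 TPM in Control and at 73.2, 72.8 and 73.6 TPM in TNF. In both genes every TNF library lay above every Control library. 9230114K14Rik, which starts opposite the helicase gene Dhx15, rose from 41, 17.3 and 34.8 TPM to 58.1, 61.8 and 43.2 TPM (log2 fold change 0.91 ± 0.25, adjusted p = 0.0222). Its adjusted p was 0.0707 without TNF replicate 1 and 0.0816 without TNF replicate 2. Gm13056 fell from 44.3, 37.3 and 46.8 TPM to 30, 27.3 and 33.5 TPM (log2 fold change -0.41 ± 0.10, adjusted p = 0.0136), with an adjusted p of 0.0591 without Control replicate 3 and 0.0637 without TNF replicate 1. Gm42047 (68.7 TPM), Gm46620 (33.7 TPM) and Gm47283 (32.4 TPM) were not called, with log2 fold changes of 0.22, -0.27 and 0.17.

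The 2 groups were then compared by edgeR's quasi-likelihood test over all 15547 genes with enough counts, with Benjamini-Hochberg adjustment. A gene was called at an adjusted p below 0.05, and fold changes are TNF against Control. Of the 200 lncRNAs, all of which were tested, 31 were called higher and 36 lower, and 133 were not called. The called share was 33.5%, near the 32.4% of all genes tested. The share called higher was 15.5%, against 16.0% of all genes, and the share called lower 18%, against 16.4%. The 3 CPM values of each group did not overlap for 94 lncRNAs (47%), against 48.7% of all genes. The median log2 fold change was -0.07 over the 200 and -0.00 over all genes, and the median size of change was 0.38 and 0.28. Without TNF replicate 1 the number called lower was 22. Among called lncRNAs, 21 rose and 8 fell by at least 2-fold, which is 10.5% and 4% of the 200, against 5.81% and 5.22% of all genes. Of these, 10 risers reached the 200 by their level in TNF alone and 6 fallers by their level in Control alone, so nothing is read from these counts.

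**Figure D2:**
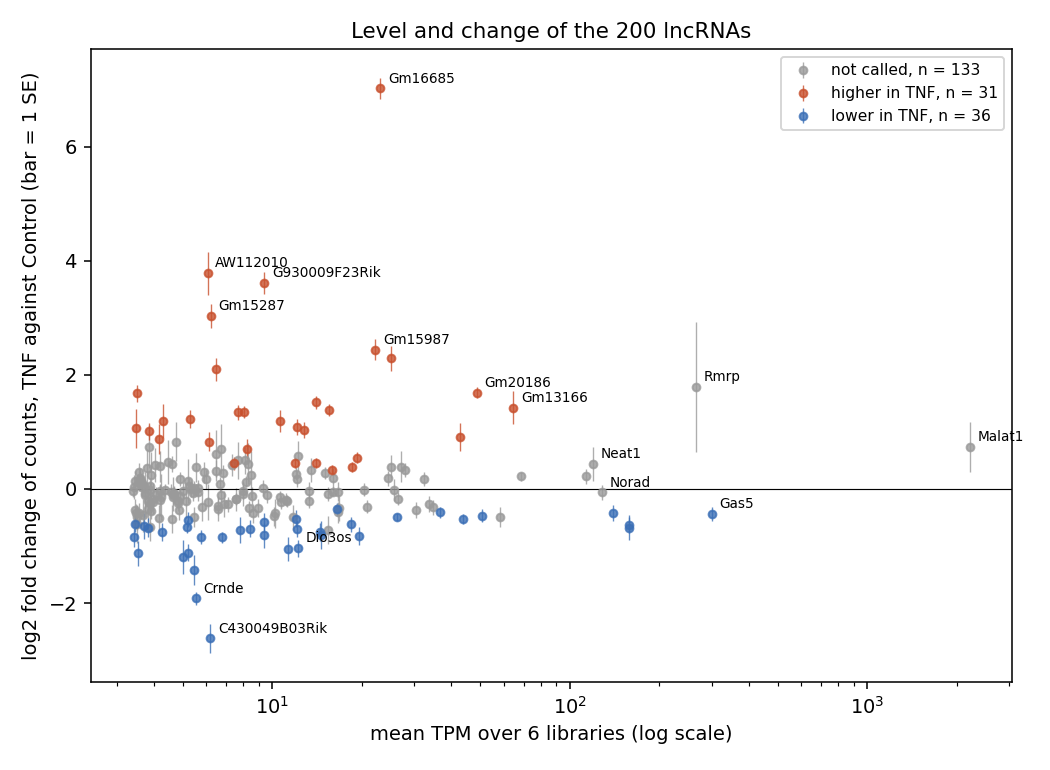
Log2 fold change of counts (TNF against Control, bars are 1 SE) against mean TPM over 6 libraries on a log axis, for the 200 lncRNAs. Red points are the 31 called higher, blue the 36 called lower and grey the 133 not called. Gm16685 lies at 7.02 and C430049B03Rik at -2.62, while the wide bars at high level belong to Rmrp and Malat1.

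The selection itself depended on the groups. By mean TPM in Control alone 187 of the 200 ranked among the top 200, and by mean TPM in TNF alone 181 did. Of the 13 that reached the top 200 by TNF alone, 11 were called higher, and of the 19 that reached it by Control alone, 11 were called lower. Gm16685 ranked 824 by Control and 15 by TNF, AW112010 ranked 580 and 62, and C430049B03Rik ranked 65 and 350. Being selected through 1 group favors a difference between groups, so nothing is read from these calls. By mean CPM, which is not corrected for length, 146 of the 200 would have been chosen. All 200 passed the count filter, and 198 had at least 10 counts in every library.

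Gm16685, transcribed opposite the interleukin gene Il7 and known for induction by inflammatory stimuli, changed most. It stood at 0.286, 0.318 and 0.316 CPM in Control and at 43, 44.8 and 32.9 CPM in TNF. The groups were far apart, with a log2 fold change of 7.02 ± 0.18 (130-fold) and an adjusted p of 1.56e-07. Il7, the gene it overlaps, changed by -0.25 ± 0.12 on the log2 scale (adjusted p = 0.138). AW112010, an interferon-inducible RNA of immune cells that has also been described as coding for a short protein, rose from 0.252, 0.45 and 0.0879 CPM to 4.12, 3.35 and 3.89 CPM. That is a log2 fold change of 3.78 ± 0.38 (adjusted p = 1.12e-04). G930009F23Rik rose from 0.924, 0.635 and 1.04 CPM to 11.2, 11.3 and 9.01 CPM (3.61 ± 0.19, adjusted p = 2.63e-06). Its nearest coding gene, Azin1, an inhibitor of antizyme, rose by 0.32 ± 0.07 on the log2 scale. Gm15287 rose from 0.37, 0.569 and 0.422 CPM to 3.56, 3.42 and 4.25 CPM (3.03 ± 0.21, adjusted p = 1.18e-05). In all 4 genes every TNF library lay above every Control library.

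Gm15987, which runs opposite the lectin gene Clec2g, rose from 2.57, 1.97 and 1.92 CPM to 12.9, 13.1 and 9.03 CPM. Gm12840 rose from 2.22, 1.64 and 2.81 CPM to 10.8, 13.2 and 8.58 CPM. 9530082P21Rik rose from 3.46, 2.45 and 3.87 CPM to 14.4, 16.6 and 11 CPM. The log2 fold changes of these 3 were 2.44, 2.29 and 2.10, and in each TNF replicate 3 was the lowest TNF library. Further rises above 1 on the log2 scale were seen for Gm20186 (1.69 ± 0.10, adjusted p = 3.97e-06), D130020L05Rik (1.68), AU020206 (1.52), Gm13166 (1.42), F730043M19Rik (1.35) and Gm17396 (1.23). AU020206 stood at 9.24, 11.3 and 9.26 CPM in Control and at 26.4, 28.7 and 30.4 CPM in TNF. D130020L05Rik stood at 1.98, 2.49 and 2.09 CPM and at 7.08, 6.05 and 7.95 CPM. Control and TNF libraries did not overlap in any of these. All 15 of the largest rises stayed called when each library was left out in turn. They were chosen from these same libraries as the largest called rises with groups apart, which favors keeping the call. Several of them also entered the selection through their TNF level alone. Their stability is therefore not independent evidence.

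Of the inflammation and interferon list, 7 of 21 genes were among the 200, and edgeR called 4 higher (AW112010, Gm16685, Gm20559 and Mir22hg) and 0 lower. None was lower at an unadjusted p below 0.05 or by DESeq2. AW112010 and Gm16685 entered the 200 through their TNF level alone, so the count of this list supports nothing. Gm20559, next to the interferon-induced gene Samd9l, rose from 7.06, 6.44 and 6.71 CPM to 16.4, 20.1 and 16.2 CPM (1.38 ± 0.11, adjusted p = 2.83e-05). Samd9l rose from 79.1 ± 10.2 to 194 ± 7.9 CPM (SD, n = 3), a log2 fold change of 1.30 ± 0.11 (adjusted p = 3.6e-05 by edgeR). Mir142hg, the host of miR-142 that is known from blood cells, was at 0.308 ± 0.133 CPM in Control and 0.474 ± 0.141 CPM in TNF (SD, n = 3) and was not called (0.62 ± 0.41, adjusted p = 0.278). Its TPM was lowest in Control replicate 2, at 2.81. The list was drawn up with results of these data known, so its direction is not independent evidence.

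Promoter sequences (RefSeq, GRCm38.p6, from 250 bases before to 50 after the start site) were matched for 118 of the 200. The NF-kB motif, searched by name on both strands, occurred in 2.37% of all 27025 promoters and in 2 of 17 promoters of lncRNAs called higher. It occurred in 0 of 21 of those called lower and in 1 of 80 of those not called. AW112010, 1 of the 2 risers with a match, entered the 200 through its TNF level alone (rank 580 by Control, 62 by TNF). The share among risers therefore supports nothing. Both promoters of risers with a match are shown because the cytokine given acts through this factor. That of AW112010 (chr19:11050517-11050816, minus strand) holds the motif 70 bases before the start site, and that of 4833438C02Rik (chr19:46305580-46305879, minus strand) holds it 85 bases before. Capitals mark the match.
AW112010: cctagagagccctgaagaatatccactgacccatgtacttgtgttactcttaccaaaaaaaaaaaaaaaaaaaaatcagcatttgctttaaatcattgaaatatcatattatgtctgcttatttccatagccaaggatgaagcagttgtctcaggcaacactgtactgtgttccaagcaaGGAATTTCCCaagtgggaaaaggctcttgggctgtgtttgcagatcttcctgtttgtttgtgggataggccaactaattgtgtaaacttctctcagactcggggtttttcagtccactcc
4833438C02Rik: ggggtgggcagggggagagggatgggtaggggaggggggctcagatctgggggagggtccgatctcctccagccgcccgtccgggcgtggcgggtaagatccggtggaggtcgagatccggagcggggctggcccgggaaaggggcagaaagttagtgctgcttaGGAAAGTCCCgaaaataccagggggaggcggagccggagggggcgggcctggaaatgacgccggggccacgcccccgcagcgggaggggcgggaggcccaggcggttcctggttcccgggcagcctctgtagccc
4833438C02Rik runs opposite Nfkb2, which codes for an NF-kB subunit. It rose from 2.91, 3.32 and 3.66 CPM to 9.05, 7.35 and 8.63 CPM (1.34 ± 0.13, adjusted p = 9.09e-05), and Nfkb2 rose from 84.8 ± 6.75 to 331 ± 15.4 CPM (SD, n = 3). Whether reads were counted by strand is not given in the sources used here, so reads of a gene and its antisense partner cannot be told apart. The AP-1 motif TGANTCA occurred in 2 of 17 promoters of risers, 1 of 21 of fallers and 7.93% of all promoters. The interferon response motif GAAANNGAAA occurred in 1 of 17, 0 of 21 and 3.49%. A match describes letters in this window and is not a measured binding site.

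**Figure D3:**
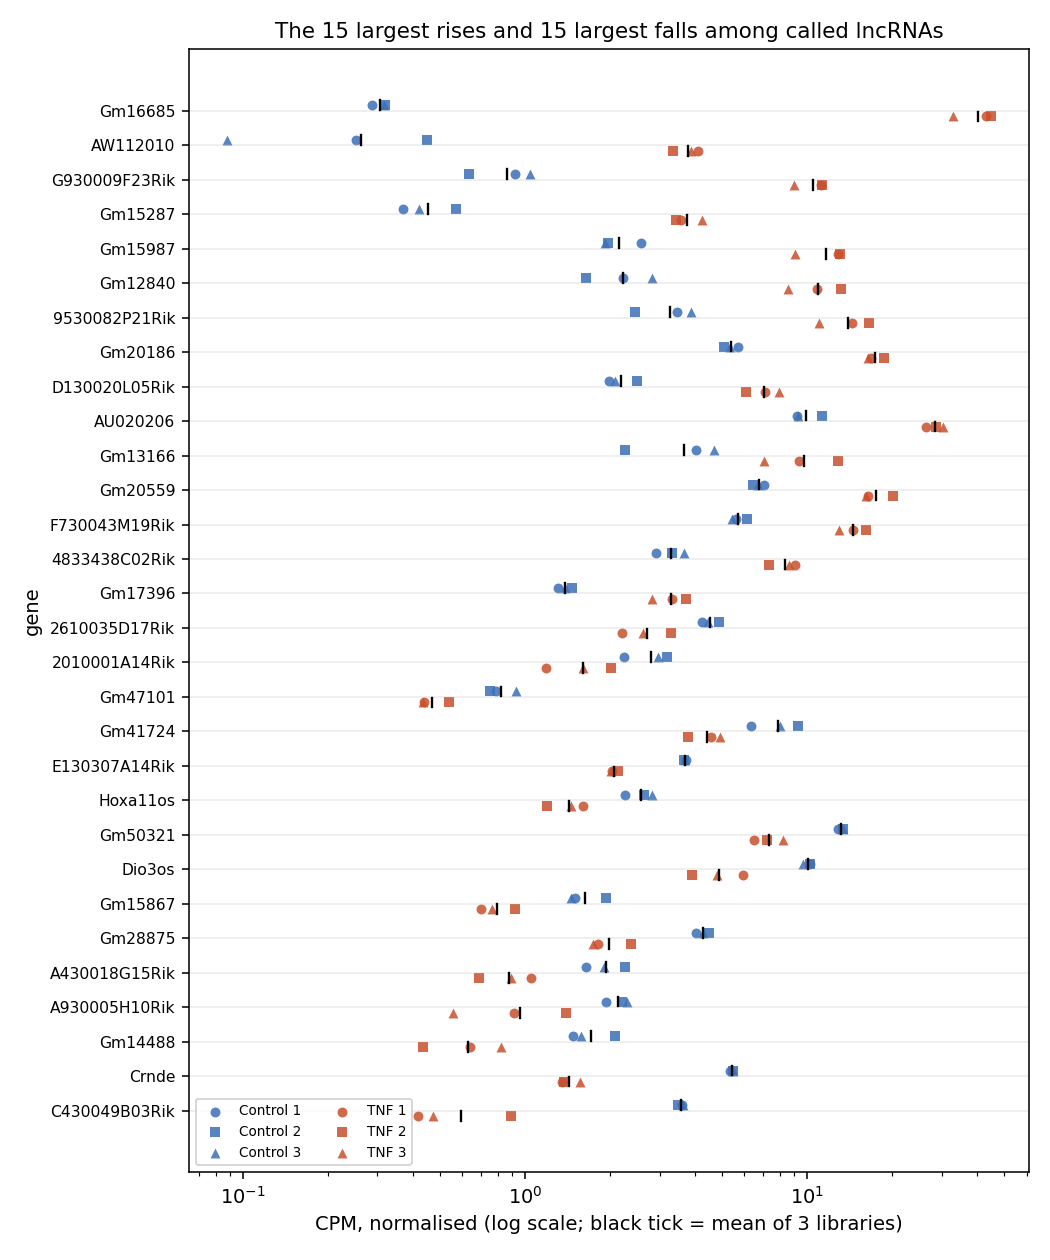
CPM by library, on a log axis, of the 15 largest rises (upper rows) and the 15 largest falls (lower rows) among called lncRNAs whose groups did not overlap. Blue symbols are Control, red are TNF, shapes give the replicate and black ticks are means of 3 libraries. Gm16685 moves from 0.286 to 0.318 CPM in Control to between 32.9 and 44.8 CPM in TNF, and C430049B03Rik moves the other way.

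C430049B03Rik, a transcript of the X chromosome, stood at 3.6, 3.49 and 3.64 CPM in Control and at 0.418, 0.894 and 0.471 CPM in TNF. It was the only one of the 200 to fall more than 4-fold (log2 fold change -2.62 ± 0.26, adjusted p = 9.50e-05). Crnde, first described in colorectal tumors, fell from 5.34, 5.48 and 5.48 CPM to 1.35, 1.38 and 1.57 CPM (-1.92 ± 0.12, adjusted p = 8.64e-06). Its neighbor Irx5, a homeobox factor, fell from 50.1 ± 10.6 to 16.7 ± 2.36 CPM (SD, n = 3). Gm14488 fell from 1.48, 2.08 and 1.58 CPM to 0.637, 0.434 and 0.82 CPM (-1.42 ± 0.27, adjusted p = 0.00367). Within each of these genes the highest TNF library lay below the lowest Control library.

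A930005H10Rik (-1.19), A430018G15Rik (-1.13), Gm28875 (-1.12) and Gm15867 (-1.05) fell by more than 2-fold as well. The adjusted p of A930005H10Rik was 0.0614 without TNF replicate 1. Gm28875 lies next to Syne3, a nuclear envelope protein, which fell by 1.32 on the log2 scale. Gm15867 starts opposite Sertad4, which fell by 1.31. Smaller falls were those of Gm50321 (-0.85), E130307A14Rik (-0.84), Gm41724 (-0.83), 2010001A14Rik (-0.81), Gm47101 (-0.81) and 2610035D17Rik (-0.75). Gm50321 stood at 12.9, 13.4 and 13.4 CPM in Control and at 6.51, 7.23 and 8.2 CPM in TNF. E130307A14Rik stood at 3.71, 3.65 and 3.69 CPM and at 2.03, 2.14 and 2.02 CPM. Gm41724, which runs opposite the collagen cross-linking enzyme gene Lox, stood at 6.33, 9.31 and 8.01 CPM and at 4.56, 3.78 and 4.9 CPM. 2010001A14Rik and Gm47101 each lost their call in 4 of the 6 fits that left out a library, with adjusted p up to 0.0837 and 0.104.

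Several of the 200 carry microRNAs, whose own levels were not measured here. Among those searched, RefSeq microRNA genes lay inside, or within 5 kb downstream on the same strand of, 11, with 38 mature sequences. The search did not cover all of the 200, so 11 is a minimum. The microRNAs below are shown with their seeds (bases 2 to 8) in capitals. The first 5 share a seed between C430049B03Rik, which was called lower, and hosts that were not called. The next pair shares a seed between 2 hosts that were not called. The last pair shares no seed with another sequence here and is shown for C430049B03Rik and for Mir22hg.
miR-322-5p: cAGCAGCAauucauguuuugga
miR-15a-5p: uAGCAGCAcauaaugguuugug
miR-16-5p: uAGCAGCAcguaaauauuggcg
miR-351-5p: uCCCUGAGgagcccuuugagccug
miR-125b-5p: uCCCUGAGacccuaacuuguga
miR-100-5p: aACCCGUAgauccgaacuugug
miR-99a-5p: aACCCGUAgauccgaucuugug
miR-503-5p: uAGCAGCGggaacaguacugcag
miR-22-3p: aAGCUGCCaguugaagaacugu
The genes of miR-322 (chrX:53054306-53054327, minus strand, GRCm38.p6), miR-503 (chrX:53054027-53054049) and miR-351 (chrX:53053315-53053338) lie just downstream of C430049B03Rik. miR-322-5p has the seed of miR-15a-5p and miR-16-5p, which lie inside Dleu2. miR-351-5p has the seed of miR-125b-5p, which lies inside both Mir100hg and Mir99ahg. These 2 hosts also carry miR-100-5p and miR-99a-5p, which share a seed. Whereas C430049B03Rik fell, Dleu2 (-0.23 ± 0.12, adjusted p = 0.155), Mir100hg (-0.02 ± 0.19, adjusted p = 0.934) and Mir99ahg (0.44 ± 0.36, adjusted p = 0.373) were not called. Mir99ahg stood at 11, 2.8 and 7.87 TPM in Control, again lowest in replicate 2, and at 11.8, 6.98 and 9.21 TPM in TNF.

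Of the microRNA host list, 7 of 35 genes were among the 200, with 1 called higher (Mir22hg) and 1 lower (Rian). The called share was 28.6%, against 32.4% of all genes. The median of their log2 fold changes was 0.25. Mir22hg, the host of miR-22, rose from 13.8, 11.6 and 12.9 CPM to 16.6, 17.2 and 15.9 CPM (0.38 ± 0.09, adjusted p = 0.0155). Its adjusted p was 0.0564 without TNF replicate 1 and 0.151 when scaled by library totals. Carmn, the host of miR-143 and miR-145 and a marker of smooth muscle and stromal cells, stood at 13.4, 3.04 and 7.85 TPM in Control and at 10.5, 10.3 and 5.67 TPM in TNF. The groups overlapped and Carmn was not called (adjusted p = 0.673). Carmn and Snhg4, which has Mir1949 inside it, are not among the hosts counted in the sequence search above.

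The snoRNA hosts formed the largest functional group, with 21 of the 200 containing at least 1 annotated snoRNA gene. Of these, edgeR called 8 lower and 0 higher, and 18 of 21 had a log2 fold change below 0. None was higher at an unadjusted p below 0.05 or by DESeq2, which called 9 lower. The median log2 fold change was -0.43, against -0.07 over the 200 and -0.00 over all genes, and the called-lower share was 38.1%, against 16.4% of all genes. No host reached a 2-fold change. Summed over the 21 hosts, the level was 401, 593 and 426 CPM in Control and 321, 329 and 352 CPM in TNF. Every TNF library lay below every Control library, and Control replicate 2 stood above the other Controls, being the highest Control in 14 of the 21. Without that library 6 hosts were called lower, and without TNF replicate 1 there were 4. The 10 snoRNA hosts ranked below the 200 had a median log2 fold change of 0.01, and edgeR and DESeq2 called none of them, with 1 higher at an unadjusted p below 0.05.

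AI506816 stood highest by counts, at 157, 289 and 162 CPM in Control and 119, 125 and 134 CPM in TNF. It was called lower (-0.68 ± 0.22, adjusted p = 0.0439), but the adjusted p was 0.0754 to 0.14 when a TNF library was left out and 0.102 with the 18S share as a covariate. Gas5, which carries 10 snoRNA genes and accumulates in growth-arrested cells, fell from 55.7, 76.7 and 62.1 CPM to 46.2, 45.7 and 51.6 CPM (-0.44 ± 0.12, adjusted p = 0.0257). Without TNF replicate 1 its adjusted p was 0.0991, and without TNF replicate 2 it was 0.0782. Snhg1, with 8 snoRNA genes, fell from 12.9, 13.5 and 13.6 CPM to 8.58, 9.01 and 10.2 CPM (-0.53 ± 0.09, adjusted p = 0.00305). 2410006H16Rik fell from 24.9, 36.7 and 26.6 CPM to 19.5, 18.2 and 18.8 CPM (-0.64 ± 0.14, adjusted p = 0.0092). Snhg18 fell from 40.7, 51.5 and 46.4 CPM to 34.7, 30.2 and 35 CPM (-0.47 ± 0.11, adjusted p = 0.00973). These last 3 stayed called whichever library was left out, as did Epb41l4aos (-0.75 ± 0.16, adjusted p = 0.00816). The call of 1110038B12Rik (-0.43, adjusted p = 0.0422) was lost without Control replicate 2, TNF replicate 1 or TNF replicate 2, with an adjusted p of 0.0853 to 0.128.

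Hosts that were not called included Snhg8 (-0.49, adjusted p = 0.0568), Zfas1 (-0.32, adjusted p = 0.0919), Snhg12 (-0.41), Snhg3 (-0.50), Snhg5 (-0.51), Snhg10 (-0.36), Snhg20 (-0.17), Snhg4 (-0.05) and Snhg17 (-0.04). Snhg6 (0.22), Snhg15 (0.18) and 9330159M07Rik (0.29, the highest of the 21 hosts) lay above 0 and were not called either. Snhg6 stood at 107, 84.4 and 133 TPM in Control and at 122, 107 and 127 TPM in TNF. Groups overlapped in Snhg6 and in Snhg15.

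**Figure D4:**
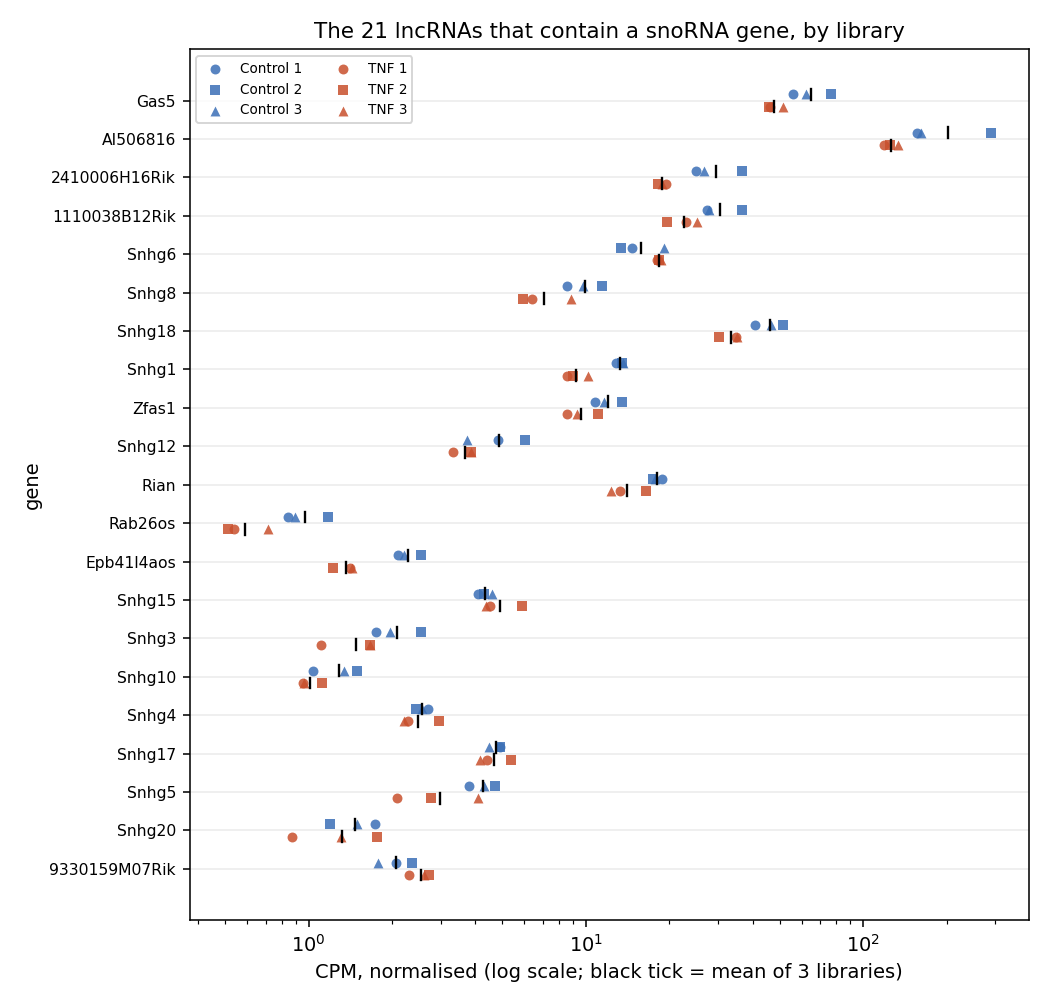
CPM by library, on a log axis, of the 21 lncRNAs that contain a snoRNA gene, in order of mean TPM. Blue symbols are Control, red are TNF, shapes give the replicate and black ticks are means of 3 libraries. TNF means lie left of Control means in 18 of 21 rows, and the blue squares (Control replicate 2) are often the highest.

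Host genes of this kind are known to start transcripts with a C followed by a run of pyrimidines, the 5′ terminal oligopyrimidine tract of growth-regulated RNAs. A run of at least 6 bases made of a C followed only by C or T was searched within 10 bases of the RefSeq start site on the transcribed strand. It was found in 9 of 18 matched snoRNA hosts (50%), in 28.8% of the 118 matched lncRNAs and in 19.2% of all promoters. The start windows of the 4 called-lower hosts with the highest level among those with a run are shown, as 40 bases of which 15 lie before the start site, with the run in capitals.
AI506816: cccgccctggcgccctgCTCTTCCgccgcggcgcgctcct
2410006H16Rik: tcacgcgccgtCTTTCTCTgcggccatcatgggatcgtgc
1110038B12Rik: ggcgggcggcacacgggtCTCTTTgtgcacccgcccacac
Snhg18: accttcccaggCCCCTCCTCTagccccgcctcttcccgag
They lie at chr5:23712643-23712682 (minus strand), chr11:62602862-62602901 (plus), chr17:34952447-34952486 (minus) and chr15:32244638-32244677 (minus) of GRCm38.p6. Gas5 and Snhg1 had runs of 3 and 4 bases at their RefSeq start sites, so a run was not shared by all hosts that fell. Of the 9 hosts with a run, 5 were called lower and 4 were not called (Snhg8, Snhg12, Rab26os and Snhg10). Among matched hosts without a run, only Gas5 and Snhg1 were called lower. Whether a run goes with a fall was not tested.

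The proteins that build snoRNA particles were read from a separate list. Of 15 genes, edgeR called 4 higher and 0 lower, and their median log2 fold change was 0.25. The called share was 26.7%, against 32.4% of all genes called and 16.0% called higher. None was lower at an unadjusted p below 0.05 or by DESeq2, which called 6 higher. The called genes with the smallest adjusted p were the assembly factors Nufip1 (0.59 ± 0.15, adjusted p = 0.0145), Shq1 (0.40 ± 0.11, adjusted p = 0.0195) and Ruvbl1 (0.25 ± 0.07, adjusted p = 0.0258). Nufip1 stood at 17.6, 14.1 and 20.5 CPM in Control and at 27.8, 27.7 and 22.9 CPM in TNF. Of 17 genes of nonsense-mediated decay, the pathway that degrades many spliced host transcripts, 1 was called higher (Rnps1, 0.37) and 2 lower (Smg6, -0.49, and Upf1, -0.35). Of 16 genes on the paraspeckle list 1 was called higher (Taf15, 0.42) and 2 lower (Cirbp, -0.91, and Fig4, -0.46). Fig4 is not an established paraspeckle protein, so its call is not read as one of that group. Of 17 microRNA processing genes 3 were called higher and 1 lower, led by the ribonuclease Zc3h12a (2.26 ± 0.16, adjusted p = 1.3e-05) and the exporter Xpo5 (0.43 ± 0.07, adjusted p = 0.00194). Of 14 Xist silencing proteins 3 were called higher and 1 lower, among them Spen (0.61) and Ezh2 (-0.56). The called shares were 17.6% for nonsense-mediated decay, 18.8% for the paraspeckle list, 23.5% for microRNA processing and 28.6% for Xist silencing proteins. All lay below the 32.4% of all genes.

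Imprinted and X-linked lncRNAs were read next. Of the imprinted list, 3 of 12 were among the 200, with Peg13 and Rian called lower. That is 66.7% called lower, against 16.4% of all genes, but of 3 genes only. The 2 lncRNAs that the selection rule left out are imprinted too, so nothing is read from the number among the 200. Peg13, transcribed within Trappc9, fell from 87.6, 83.1 and 84.6 CPM to 60.5, 61.2 and 59.3 CPM, with very little spread in either group (-0.50 ± 0.07, adjusted p = 9.06e-04). Trappc9 itself was not called (0.11). Rian, which carries 13 snoRNA genes and several microRNAs, stood at 18.9, 17.4 and 17.7 CPM in Control and at 13.3, 16.5 and 12.3 CPM in TNF (-0.36 ± 0.12, adjusted p = 0.0489). Its TPM values overlapped, at 17.1, 17.7 and 16.4 against 18.9, 17.5 and 11.4, and its call was lost in 5 of the 6 fits that left out a library. Xist stood at 24.4, 19.3 and 14.5 TPM in Control and at 11.7, 16.6 and 13.7 TPM in TNF and was not called (-0.34 ± 0.22, adjusted p = 0.271). Firre, an X-linked nuclear organizer (-0.09), and Chaserr, a regulator of the neighboring Chd2 (-0.37), were not called either. Of the nuclear list, 6 of 15 were among the 200, and Gas5 alone was called (16.7%, against 32.4% of all genes).

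Of the Hox cluster list, 3 of 20 were among the 200. Hoxa11os fell from 2.27, 2.65 and 2.81 CPM to 1.61, 1.2 and 1.46 CPM (-0.85 ± 0.17, adjusted p = 0.006), and Hoxa11, the limb patterning gene it overlaps, fell from 7.64 ± 1.02 to 3.48 ± 0.281 CPM (SD, n = 3). Hotairm1 (-0.43, adjusted p = 0.236) and Hoxd3os1 (-0.32, adjusted p = 0.344) were not called. Of the p53 and growth list 4 of 14 were among the 200, and Gas5 was called lower while Pvt1, next to Myc, was not (-0.21, adjusted p = 0.204). The cytoplasmic list gave 6 of 15, again with Gas5 alone called. Called shares were 33.3% (Hox cluster), 25% (p53 and growth) and 16.7% (cytoplasmic), against 32.4% of all genes. Oip5os1, also named Cyrano and known for triggering decay of miR-7, was flat, at 22.2, 20.6 and 20.4 TPM against 18.4, 19.1 and 21.4 TPM (-0.01 ± 0.11, adjusted p = 0.945).

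Position relative to coding genes was read from GENCODE M21. Of the 200, 68 start within 1000 bases of a coding gene on the opposite strand (head-to-head), 38 overlap one on the opposite strand and 17 on the same strand, and 77 have only a nearest neighbor. Head-to-head partners were tested for 67, and both were called in 12 pairs, with the same direction in 10. Antisense partners were tested for 31, and both were called in 4 pairs, all in the same direction. Nearest neighbors were tested for 60, and both were called in 12 pairs, with the same direction in 9. Same-strand partners were tested for 11, but for Erdr1 and Gm47283, which are among the 17, the partner values were those of the lncRNA itself. Same-strand pairs are therefore not summarized. The partner was called in 31.3% of head-to-head, 32.3% of antisense and 45% of nearest pairs, against 32.4% of all genes. Across pairs the fold changes of lncRNA and partner had a Pearson r of 0.35 (head-to-head), 0.10 (antisense) and 0.34 (nearest), all from the same libraries. Head-to-head and merely neighboring pairs thus gave like values. The opposite head-to-head pairs were A930005H10Rik, which fell while Dph5 rose (0.57 ± 0.10), and Snhg1, which fell while the amino acid transporter subunit gene Slc3a2 rose (0.30 ± 0.09).

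Pairs that fell together included Gm17501 (-0.62) with the matrix protein gene Ccn1 (-0.81) and Snhg18 (-0.47) with the guidance receptor ligand gene Sema5a (-0.68). Pairs that rose together included 2810408I11Rik (0.83) with the cyclin-like gene Ccnyl1 (1.12) and Gm17396 (1.23) with the RNA-binding protein gene Rbms3 (0.72). 2810408I11Rik, Gm17501 and Morrbid were named after their values were seen. Ccn1 fell from 554 ± 37.7 to 316 ± 11.2 CPM (SD, n = 3), and Ccnyl1 rose from 49.3 ± 2.64 to 107 ± 2.71 CPM. Morrbid, which is known to repress its neighbor Bcl2l11 in myeloid cells, rose from 8.06, 8.08 and 8.58 CPM to 12, 11.2 and 10.9 CPM (0.46 ± 0.09, adjusted p = 0.00395). It was not called with library totals or by limma on log2(TPM + 1) or log2(TPM + 0.1). Bcl2l11, a pro-apoptotic gene, fell from 25 ± 1.6 to 13.6 ± 1.02 CPM (SD, n = 3, log2 fold change -0.88 ± 0.09). This pair is 1 of 3 nearest pairs called in opposite directions, against 9 in the same direction. Whether Morrbid acts on Bcl2l11 in these cells was not tested.

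**Figure D5:**
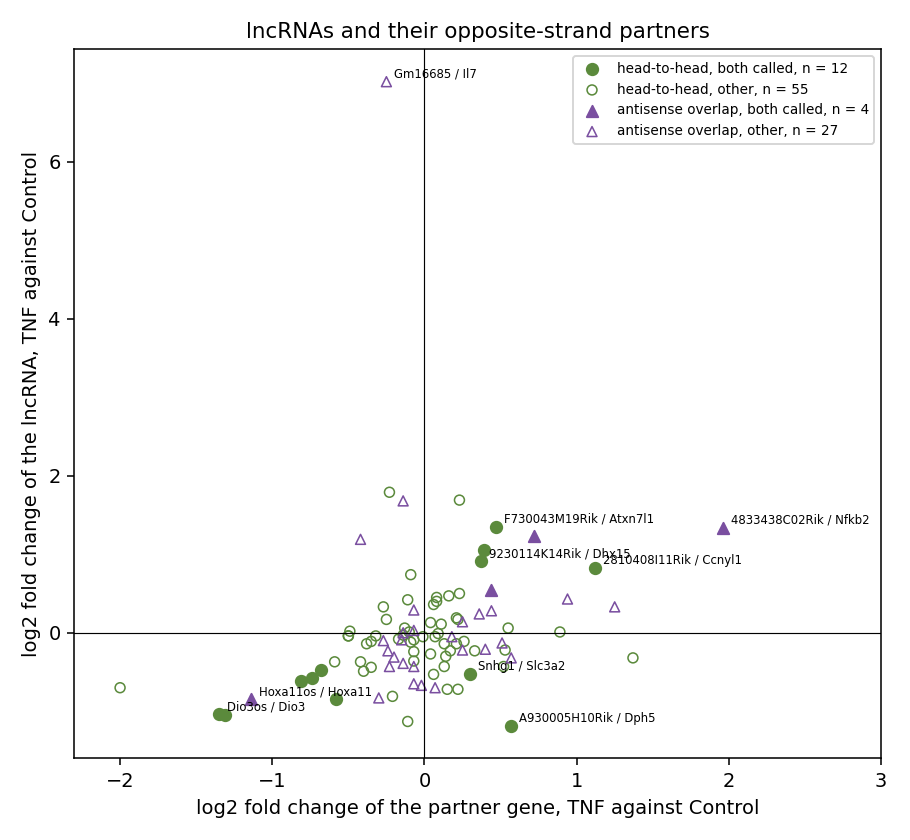
Log2 fold change of each lncRNA against that of its partner gene, TNF against Control, for 67 head-to-head (green circles) and 31 antisense (purple triangles) pairs. Filled symbols are pairs in which both genes were called. Filled symbols lie mostly in the upper right and lower left, and Gm16685 with Il7 stands alone at the top.

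Among the 13 lncRNAs named as opposite-strand transcripts of a gene, edgeR called 4 lower and 0 higher, and none was higher at an unadjusted p below 0.05 or by DESeq2. Their called share was 30.8%, against 32.4% of all genes called and 16.4% called lower. DESeq2 called 6 of the 13 lower, among them Brip1os and Zbtb11os1, which edgeR did not call. Zbtb11os1 was also called by limma-voom and with the 18S share as a covariate. Dio3os, opposite the thyroid hormone deiodinase gene Dio3, fell from 10.2, 10.2 and 9.7 CPM to 5.95, 3.91 and 4.81 CPM (-1.04 ± 0.15, adjusted p = 7.70e-04), and Dio3 fell from 72.6 ± 2.72 to 28.4 ± 2.4 CPM (SD, n = 3). Epb41l4aos fell with Epb41l4a (-0.64 ± 0.08), and Hoxa11os with Hoxa11. Sp3os fell (-0.70 ± 0.15, adjusted p = 0.00659) while the transcription factor gene Sp3 was not called (0.07 ± 0.12, adjusted p = 0.682). Brip1os (-0.37) and Oip5os1 were not called while Brip1 (-0.59) and Oip5 (-0.55) fell. Rab10os (-0.21) and Zeb2os (0.28) were not called while Rab10 (0.40) and Zeb2 (0.44) rose. Neither member was called for Zbtb11os1 (-0.49, adjusted p = 0.052), Map2k3os (0.40) or Pard3bos3 (0.29) and their partners. Rab26os (-0.72, adjusted p = 0.0609) was not called either.

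The threshold of the selection fell in a dense part of the ranking. The last 5 lncRNAs inside it, Gm26559, Gm49700, Hoxa11os, 4930447F24Rik and 4933431E20Rik, had mean levels of 3.45, 3.45, 3.44, 3.44 and 3.39 TPM. The first 5 outside it, BC002059, D430020J02Rik, 4933404O12Rik, Fendrr and 6330562C20Rik, had 3.35, 3.26, 3.25, 3.24 and 3.23 TPM.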

How the data were processed

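Total RNA from 6 MSC samples was made into libraries with the SMART-Seq Stranded Kit, per the labels' protocols. Reads were processed with Trim Galore, STAR, StringTie and Salmon on GRCm39, per the submitters' processing notes, with versions not given in the sources used here. The authors deposited expected counts as whole numbers and TPM for each library. Column names call the counts raw while a title line calls them normalized, and they were used as deposited. The authors' TPM were used for levels and ranking. Every listed gene had at least 10 counts in at least 3 libraries.

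Counts of 15547 genes were fitted in R 4.3.3 with edgeR 4.0.16 (filterByExpr, TMM scaling, quasi-likelihood test, two-sided, Benjamini-Hochberg adjustment over all genes). SE is the log2 fold change divided by the square root of F. DESeq2 1.42.0 and limma 3.58.1 were alternatives. On simulated counts for 15547 genes the test recovered 48 of 50 genes changed 2-fold and 28 of 50 changed 1.5-fold.

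The named lncRNAs are the 20 most abundant, the 15 largest rises and 15 largest falls among called ones with groups apart, members of gene lists, those with names ending in os, and the 5 genes on each side of the selection threshold. The snoRNA host 9330159M07Rik was named after its value was seen. From each partner list up to 3 called genes with the smallest adjusted p were named. Members and lists were chosen with earlier results of these data known. Neighbors came from GENCODE M21 and sequences from RefSeq, both on GRCm38, so no GRCm39 coordinates are given.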

Additional observations from a re-analysis of the deposited data

How the results depend on the processing

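The number of lncRNAs called higher stayed within 22 to 33, the number called lower within 31 to 41, and no called lncRNA changed direction, under other scalings (RLE, library totals, TMM from protein-coding genes), other count filters, DESeq2, limma-voom, limma on log2(TPM + 1) or log2(TPM + 0.1), an 18S covariate, a ranking by CPM and the removal of replicate 2 from both groups. The share higher among called lncRNAs was 46.3%, 37.9% with library totals and 38.6% with log2(TPM + 1). The number called lower was 21 at an adjusted p below 0.01, 8 with a change of at least 2-fold and 21 among the 100 most abundant. With 1 library left out at a time, 25 to 32 were called higher and 22 to 34 lower, and 46 of the 67 called lncRNAs kept their call in all 6 fits. TNF replicate 1 cost the most, 21 calls. The difference in summed TPM, 985 with all libraries, ranged from 278 to 1489.6 in these fits and was 57.2 without Malat1. The SD in Control, 1258, was larger than the difference itself, so no stability is read from these values. The count of snoRNA hosts called lower (8), repeated after the data were seen, was 4 to 8 with 1 library left out, 4 at an adjusted p below 0.01 and 0 at 2-fold or more. With the replicate number as a block, 27 were called higher, 28 lower and 4 snoRNA hosts lower. Same-numbered libraries did not deviate together (r = -0.0125, -0.304 and -0.222). Deviations from a mean of 3 libraries are not independent, so these values cannot show whether the numbers pair the samples. Rows over ribosomal DNA were not among the 200, so leaving them out changed nothing. Each lncRNA had 89 counts or more over 6 libraries. In simulation 1.5-fold changes were often missed, but the changed genes were drawn from all genes tested. Far fewer genes were changed there than were called here. The simulation therefore does not show how often changes of lncRNAs were missed. The cause of these shifts was not tested.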

Other observations

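Beyond the 200, 854 less abundant named lncRNAs could be tested, and edgeR called 63 higher and 72 lower. Their called share was 15.8%, against 33.5% of the 200, and their median size of change was 0.42, against 0.38. Within the 200, in 4 groups of 50 from most to least abundant, the called share was 46%, 38%, 28% and 22%. The median size of change in these groups was 0.41, 0.44, 0.31 and 0.36. Lower counts make a change harder to call, so no difference in response is read from the called shares. Fendrr, a lncRNA of lateral mesoderm that stood just below the selection at 3.24 TPM, rose from 2.93 ± 0.163 to 5 ± 0.392 CPM (SD, n = 3), a log2 fold change of 0.77 ± 0.12 (adjusted p = 0.00136 by edgeR). 4933404O12Rik, ranked 203, fell from 8.32 ± 0.647 to 5.07 ± 0.226 CPM, a log2 fold change of -0.71 ± 0.10 (adjusted p = 9.04e-04).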
